A study of Danio rerio with 14 samples.

Results

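The 200 genes described here are those most specific to sorted cranial sox10+ cells when set against cranial mylz2+ muscle cells in pooled wild-type/heterozygous zebrafish larvae. They were chosen from the wild-type/heterozygous libraries alone, using counts per 1000000 counts of the library (CPM). A gene needed a mean of at least 20 CPM in sox10+ cells and a log2 ratio of at least 3 between its mean level in sox10+ cells and that in mylz2+ cells, each with 1 CPM added. Of 32520 genes in the count table, 1261 passed both thresholds, 10 of these were left out by a list of 15 identifiers given in advance, and the 200 with the highest ratio were taken from the remaining 1251. The ratio in wild-type/heterozygous larvae that chose the genes ran between 5.47 and 9.99, with a median of 6.40. The last genes inside were si:ch211-1a19.3, DDR2 and TMEM178B, each at 5.47, and the first genes outside were zgc:66433 at 5.46, pkd1a at 5.46 and si:ch211-80h18.1 at 5.45, so the boundary falls between near-equal ratios.

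RNA-Seq was done on psmb1 mutant larvae (genotype -/-) and on pooled wild-type and heterozygous larvae of the same line at 72 hours post-fertilization (hpf), with 3 mutant and 4 wild-type/heterozygous libraries for each of the 2 sorted cell types. The mutation, hi2939, is a retroviral insertion in the first intron of psmb1, which encodes a subunit of the catalytic core of the proteasome. Each library came from cells of 20 to 25 dissected heads, with 7000 sorted cells for the sox10:kaede reporter and 1500 for the mylz2 reporter. All sox10+ libraries carry the kaede reporter, which is also active outside the neural crest, for example in the ear.

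Library totals were 59318933 to 72034939 counts in mutant sox10+ cells, 54824619 to 62057318 in wild-type/heterozygous sox10+ cells, 83947537 to 103563447 in mutant mylz2+ cells and 69357630 to 78521766 in wild-type/heterozygous mylz2+ cells. The psmb1 transcript did not separate the genotypes in sox10+ cells, at 98.4, 74.2 and 88.0 CPM in mutants and 53.0, 83.0, 88.1 and 84.1 CPM in wild-type/heterozygous larvae (log2 fold change 0.04 ± 0.20 SE, adjusted p = 0.956). It therefore gives no check of the labels there. In mylz2+ cells it was lower in mutants, at 102.0, 86.7 and 87.6 CPM against 115, 132, 136 and 121 CPM (log2 fold change -0.85 ± 0.14 SE, adjusted p = 0.00161). Other proteasome subunit transcripts separated the genotypes in sox10+ cells, summing to between 13084 and 15102 CPM in mutants and between 2619 and 3773 CPM in wild-type/heterozygous larvae.

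Sox10 is a transcription factor of the neural crest, the embryonic cell population that gives rise to the jaw cartilage, to pigment cells and to the glia of peripheral nerves. It also acts in oligodendrocytes, the myelin-forming cells of the central nervous system, and in the epithelium of the developing ear. Chondrocytes build a matrix of type II, IX and XI collagens, matrilins and aggrecan, whereas myelinating glia wrap axons in membrane rich in a few structural proteins and glycolipids. The 200 genes reflect this mixture. Among the lists used for description, 20 of the genes are cartilage matrix genes, 10 belong to glia and oligodendrocytes, 8 to pigment cells, 4 to the otic epithelium, 3 to matrix processing and secretion and 2 to chondrogenic regulators, and 153 are on no list. Symbols are printed as the annotation gives them, which for some zebrafish genes is the capitalised human form, and 197 of the 200 genes have one. Paralogues can share such a symbol, so identifiers are given for the genes described in full.

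In sox10+ cells most of these genes were lower in psmb1 mutants. By the quasi-likelihood test of edgeR, with p-values adjusted over all genes tested by the Benjamini-Hochberg method and a threshold of 0.05, 59 of the 200 fell (29.5%) and 3 rose (1.5%), against 1.61% of all 21476 tested genes that fell and 2.1% that rose. The median log2 fold change was -0.81, against -0.02 over all genes tested, and 167 of the 200 had a negative value. Before adjustment, 134 had a p under 0.05 with a lower level in mutants and 9 with a higher one. The wild-type/heterozygous libraries that chose the genes are also the libraries the mutants were compared with. Choosing genes by high levels in these libraries can by itself make mutant levels look lower. How much it adds to these values was not tested. The 200 genes also had to reach a mean of 20 CPM, a limit not set for the 21476 tested genes. Both limits hold for any part of the 200 genes set against all genes tested. The other 1051 genes past both thresholds were chosen in the same way with a smaller ratio, and 125 of them fell (11.9%) and 9 rose (0.856%), with a median of -0.46. On CPM, every mutant library was below every wild-type/heterozygous library for 103 of the 200 genes and above for 10, against 5.94% and 13.6% of all genes tested.

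**Figure D1:**
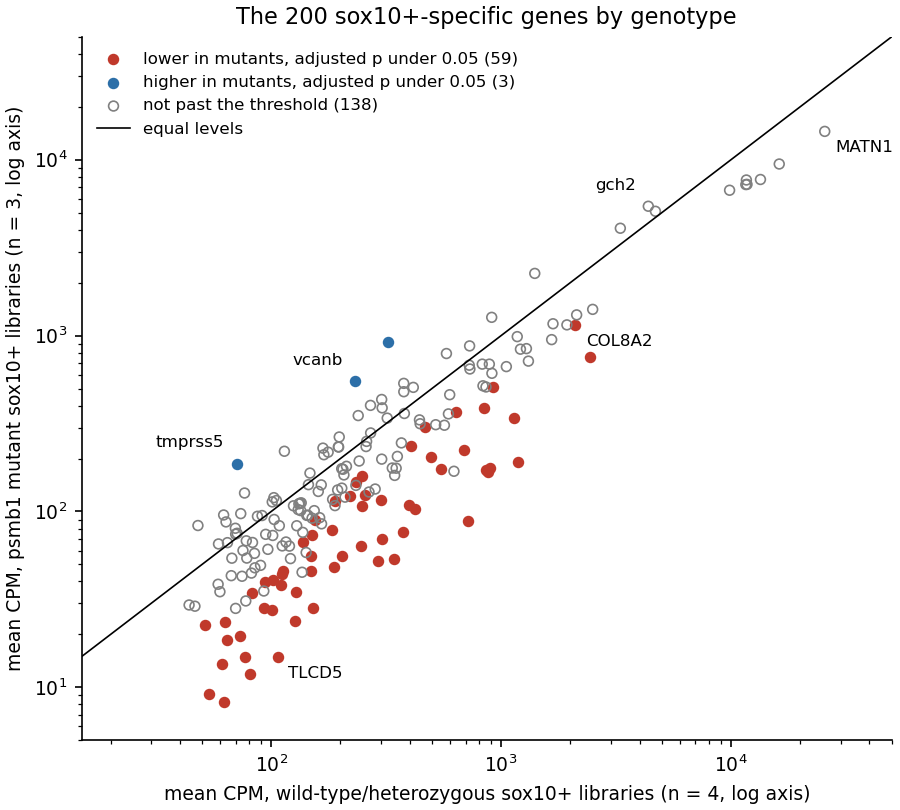
Mean CPM in the 3 psmb1 mutant sox10+ libraries (vertical, log axis) against the mean in the 4 wild-type/heterozygous sox10+ libraries (horizontal, log axis) for the 200 genes, with filled points for genes past the threshold and a line for equal levels. The 59 genes that fell lie below the line, and the 3 that rose lie above it.

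The count of genes called rested in part on single libraries. It was 26 without mutant replicate 1, 30 without mutant replicate 3 and between 45 and 61 when any other sox10+ library was left out, while the median log2 fold change stayed negative in each of these fits. Calls over all genes tested dropped as well. Without mutant replicate 1, 25 of the 200 fell, against 0.484% of all genes tested. Without mutant replicate 3, 28 fell, against 0.590%. Of the 62 genes called, 25 were called in all 7 fits that left out 1 library, and all 62 were also called by DESeq2. That test called 121 of the 200 (116 lower), and called 6.18% of all genes it tested lower. With library totals in place of TMM scaling, 51 of the 200 fell and 3 rose, and the median of all genes moved to 0.12. Over all genes tested, that scaling called 243 lower and 623 higher, against 345 lower and 452 higher with TMM scaling. Since the libraries are bulk RNA of sorted cells, fewer cells of one type and less RNA per cell cannot be told apart in any of these values.

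As a share of all counts, the 200 genes took 10.6%, 11.8% and 13.7% in the mutant sox10+ libraries and 20.4%, 16.8%, 16.6% and 18.6% in the wild-type/heterozygous ones. The highest mutant library was thus below the lowest wild-type/heterozygous library. Without the 5 most abundant genes, which are all cartilage matrix genes, the share averaged 7.40% ± 0.64 in mutants (SD, n = 3) and 10.2% ± 0.29 in wild-type/heterozygous larvae (SD, n = 4). Genes that fell were found in each of 3 ranges of level, though none of the 5 most abundant passed. Among 25 genes of at least 1000 CPM in wild-type/heterozygous larvae 4 fell, with a median log2 fold change of -0.83 over the 25. Among 130 genes of 100 to 1000 CPM 43 fell, with a median of -0.81. Among 45 genes of 20 to 100 CPM 12 fell, with a median of -0.75. These counts stand against 29.5% of the 200 genes and 1.61% of all genes tested.

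**Figure D2:**
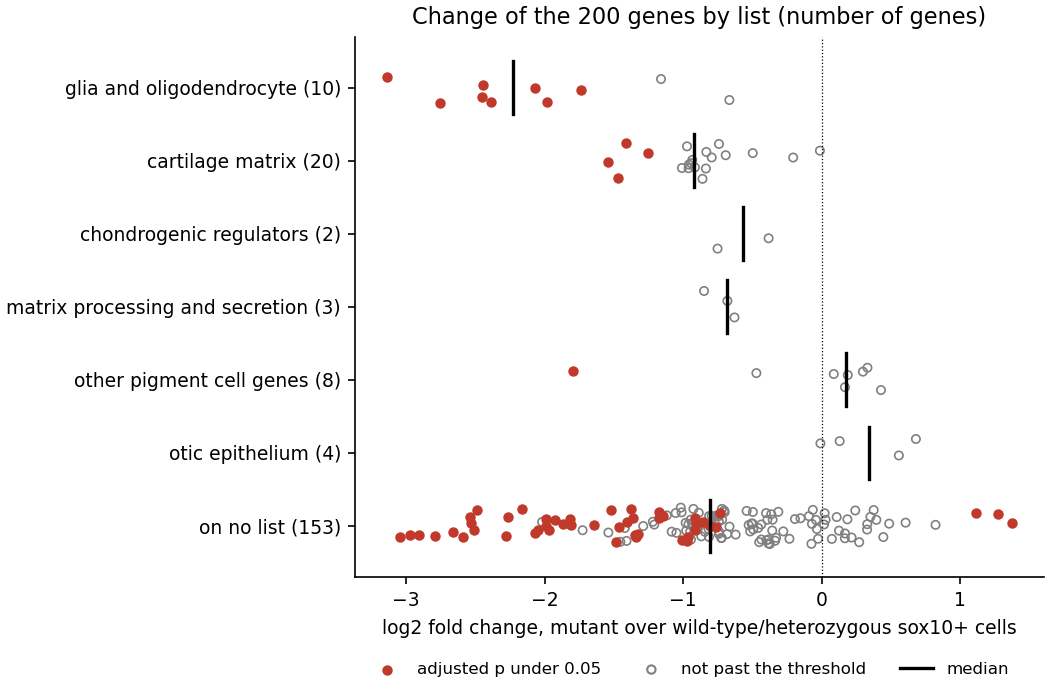
Log2 fold change of each of the 200 genes in psmb1 mutant over wild-type/heterozygous sox10+ cells, by list from top to bottom, with filled points for genes at an adjusted p under 0.05, open points for the rest and a bar at each median. The median is -2.23 for the 10 glial genes, -0.93 for the 20 cartilage matrix genes, 0.18 for the 8 pigment cell genes and 0.34 for the 4 otic genes.

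The glial and oligodendrocyte genes had the lowest median of the lists represented among the 200. Of the 10, 8 fell and none rose, against 1.61% and 2.1% of all genes tested. Their median log2 fold change was -2.23. The summed level of the 10 genes was 1104, 1265 and 1261 CPM in mutants and 3020, 7086, 6079 and 5545 CPM in wild-type/heterozygous larvae. The mutant libraries were close to each other, whereas wild-type/heterozygous replicate 1 was well below the other 3 of its genotype and still above every mutant library.

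Both genes of myelin basic protein, which compacts the myelin membrane, fell. mbpa (ENSDARG00000036186) had 134, 195 and 199.8 CPM in mutants against 507, 1135, 1112 and 808 CPM, and was 5.46-fold lower (log2 fold change -2.45 ± 0.29 SE, adjusted p = 0.00187). mbpb (ENSDARG00000089413) had 217, 209.8 and 247 CPM in mutants against 347, 817, 773 and 818 CPM, and was 3.34-fold lower (log2 fold change -1.74 ± 0.28 SE, adjusted p = 0.00908). Both genes had non-overlapping genotypes. The fall of mbpb was no longer past the threshold without mutant replicate 1 (adjusted p = 0.0616) or mutant replicate 3 (adjusted p = 0.0577).

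cldnk (ENSDARG00000042357), a claudin of fish myelin, had 175, 191 and 150.1 CPM in mutants against 429, 1092, 872 and 1046 CPM and was 5.47-fold lower (log2 fold change -2.45 ± 0.30 SE, adjusted p = 0.00225). mag (ENSDARG00000104023), myelin-associated glycoprotein of the membrane that faces the axon, had 66.3, 75.9 and 88.2 CPM in mutants against 249.9, 549.9, 424 and 268 CPM and was 5.23-fold lower (adjusted p = 0.0017). CLDN19 (ENSDARG00000044569), a claudin of Schwann cell junctions, had 54.3, 73.5 and 63.0 CPM against 145, 346, 266 and 229.5 CPM and was 4.21-fold lower (adjusted p = 0.00275). The genotypes did not overlap in any of these genes. mbpa, cldnk, mag and CLDN19 were each called in all 7 fits that left out 1 library.

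The 2 glial genes not past the threshold encode transcription factors that act before myelin is made. OLIG2 (ENSDARG00000040946), which specifies motor neurons and oligodendrocytes, had 132, 128 and 127 CPM in mutants and 123, 319, 382 and 241 CPM in wild-type/heterozygous larvae, and olig1 (ENSDARG00000040948), which acts in oligodendrocyte maturation, had 63.9, 59.9 and 39.2 CPM in mutants and 34.7, 77.9, 95.8 and 105 CPM in wild-type/heterozygous larvae. In both, wild-type/heterozygous replicate 1 lay below the mutant libraries and the other 3 wild-type/heterozygous libraries lay above them. The adjusted p was 0.0693 for OLIG2 and 0.38 for olig1. Without wild-type/heterozygous replicate 1 the adjusted p of OLIG2 was 0.00445. Whether their values differ from those of the myelin structural genes was not tested.

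On the whole list of 30 glial and oligodendrocyte genes, members of the 200 or not, 11 fell and none rose in sox10+ cells (19 lower with DESeq2), with a median log2 fold change of -1.07. The 3 that fell outside the 200 were an SLC1A2 (ENSDARG00000102453), a glial glutamate transporter, EGR2, a transcription factor of myelinating Schwann cells, and pou3f1, which acts just before EGR2 in the same cells. The other SLC1A2 (ENSDARG00000052138) had a negative value and did not pass (edgeR adjusted p = 0.0994). Of 21 genes tested on a neuron list, 2 fell (ELAVL3 and ELAVL4; 1 gene with library totals as scaling) and none rose, and the summed level of the list was 749 to 1062 CPM in mutants and 1133 to 1532 CPM in wild-type/heterozygous larvae. The part of neuronal RNA in the glial values was not tested.

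Other genes of myelin were outside the lists and were picked after their values were seen. zwi (ENSDARG00000101826), a myelin protein known from bony fish, had 51.7, 54.5 and 54.8 CPM in mutants and 190.1, 457, 322 and 395 CPM in wild-type/heterozygous larvae, and was 6.93-fold lower (log2 fold change -2.79 ± 0.28 SE, adjusted p = 0.000776). cd59a (ENSDARG00000090615), a membrane inhibitor of complement, had 127, 198 and 175 CPM against 413, 1092, 925 and 1072 CPM and was 5.71-fold lower (adjusted p = 0.00347). SLC44A1 (ENSDARG00000090982), a choline transporter, was 3.97-fold lower (adjusted p = 0.00138). All 3 were called in every fit that left out 1 library.

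Genes of myelin lipids and gap junctions fell by less firm margins. UGT8 (ENSDARG00000037455), which makes galactosylceramide, had 61.5, 31.1 and 45.1 CPM in mutants and 83.0, 152, 145 and 69.2 CPM in wild-type/heterozygous larvae (2.65-fold lower, adjusted p = 0.0371), and GAL3ST1 (ENSDARG00000062711), which sulfates that lipid to sulfatide, had 28.6, 33.9 and 41.3 CPM against 68.3, 102, 98.8 and 59.1 CPM (2.57-fold lower, adjusted p = 0.0131). GAL3ST1 was not called without mutant replicate 1 (adjusted p = 0.0795) or 3 (adjusted p = 0.075), and UGT8 was called in 2 of the 7 fits that left out 1 library, with adjusted p-values up to 0.14. GJB1 (ENSDARG00000035553), connexin 32 of Schwann cells, was 3.79-fold lower (adjusted p = 0.0329) but was called in 1 of those 7 fits, with adjusted p-values up to 0.136. MYRF (ENSDARG00000078676), a transcription factor that switches on myelin genes, had 29.8, 20.1 and 34.4 CPM against 33.4, 88.4, 100.1 and 58.1 CPM and did not pass (adjusted p = 0.059).

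**Figure D3:**
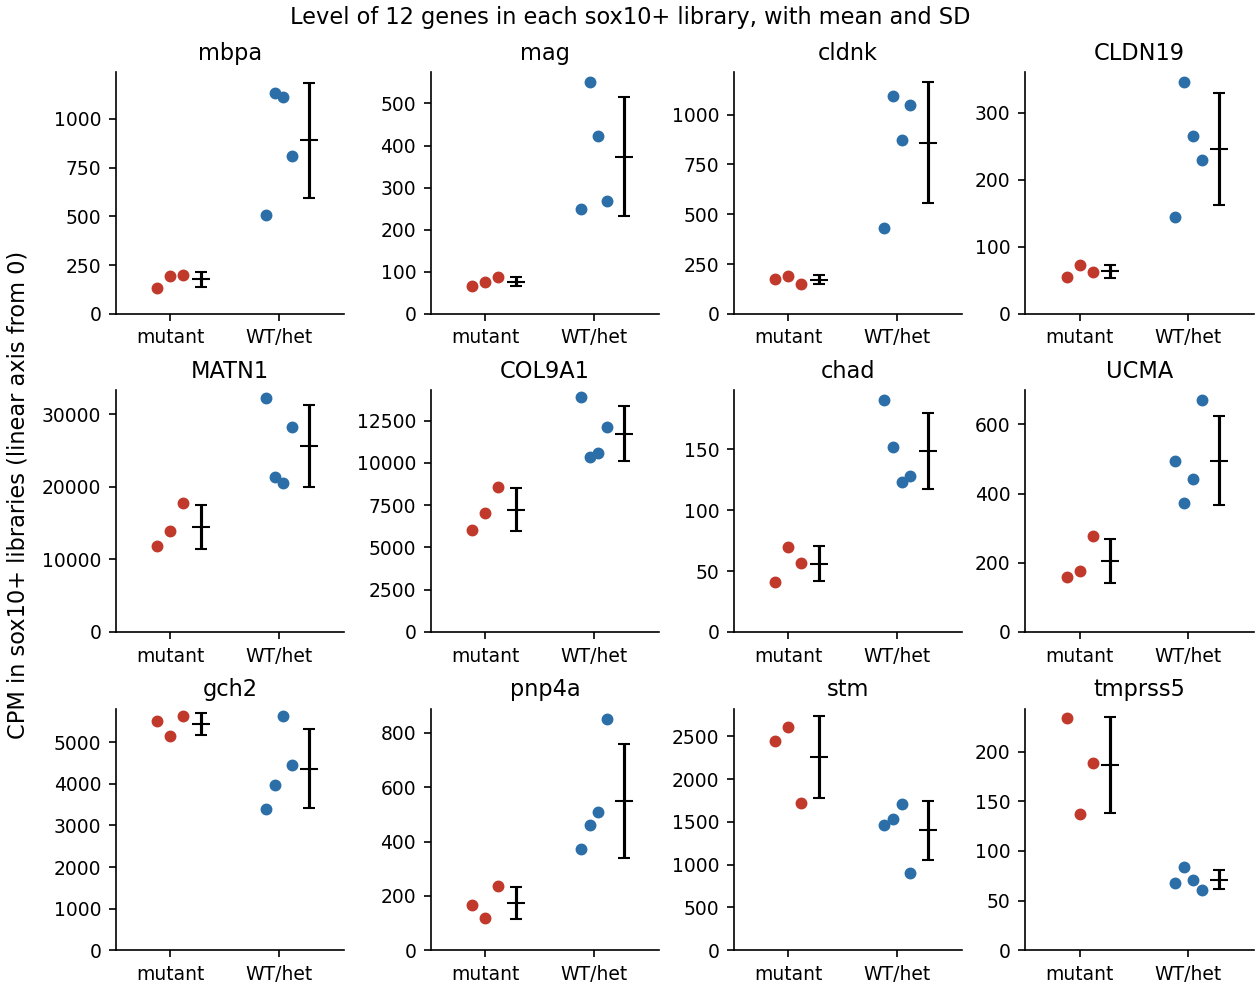
CPM of 12 genes in each of the 3 psmb1 mutant and 4 wild-type/heterozygous (WT/het) sox10+ libraries, on linear axes that start at 0, with the mean and SD beside the points. Mutant libraries lie below every wild-type/heterozygous library for the glial genes mbpa, mag, cldnk and CLDN19, for the cartilage genes MATN1, COL9A1, chad and UCMA and for pnp4a, they overlap for gch2, and they lie above for stm and tmprss5.

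Cartilage matrix genes held the highest levels among the 200 and had a narrower range of change than the glial genes. Of the 20, 4 fell and none rose, against 1.61% and 2.1% of all genes tested, and the median log2 fold change was -0.93. Every mutant library was below every wild-type/heterozygous library for 17, against 5.94% of all genes tested. DESeq2 called 18 of the 20 lower, against 6.18% of all genes it tested. Their summed level was 53760 CPM in mutant replicate 1, 64552 CPM in mutant replicate 3 and 77110 CPM in mutant replicate 4, against 129622, 92404, 89157 and 107229 CPM in wild-type/heterozygous larvae. Mutant replicate 4 was the mutant library closest to the other genotype, and wild-type/heterozygous replicate 1, lowest in the glial sum, was highest here.

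The 5 most abundant of the 200 are of this list, and their mutant and wild-type/heterozygous levels did not overlap although no single one passed the threshold. MATN1 (ENSDARG00000030215), matrilin 1, a filament-forming adaptor protein of cartilage, had 11810.5, 13863 and 17780.1 CPM in mutants and 32215, 21277, 20499 and 28284 CPM in wild-type/heterozygous larvae (log2 fold change -0.96 ± 0.25 SE, adjusted p = 0.0674). COL11A1 (ENSDARG00000026165), a chain of the type XI collagen that sets fibril width, had 7543, 9174 and 11638 CPM against 22020.1, 14488, 12440.4 and 15888 CPM (log2 fold change -0.92 ± 0.26 SE, adjusted p = 0.087). Another chain, COL11A2 (ENSDARG00000012422), had 5879, 7879.9 and 9392 CPM against 18595, 12290.4, 11024 and 11814 CPM (log2 fold change -0.93 ± 0.26 SE, adjusted p = 0.0808).

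Type IX collagen, which sits on the surface of cartilage fibrils, is encoded by 4 of the listed genes. COL9A1 (ENSDARG00000073699) had 6049.8, 7056 and 8604 CPM in mutants and 13892, 10379, 10567 and 12105 CPM in wild-type/heterozygous larvae (log2 fold change -0.83 ± 0.21 SE, adjusted p = 0.0578), and COL9A2 (ENSDARG00000024492) had 6519.9, 7686 and 8794 CPM against 13620.2, 10474, 10526 and 12036 CPM (log2 fold change -0.74 ± 0.19 SE, adjusted p = 0.0691). col9a3 gave -0.69 ± 0.21 (SE, adjusted p = 0.104) without overlap of the genotypes. col9a1b (ENSDARG00000031483), at 376, 331 and 375 CPM in mutants and 293, 373, 404 and 447 CPM in wild-type/heterozygous larvae, overlapped (log2 fold change -0.21 ± 0.18 SE, adjusted p = 0.673). With DESeq2 the adjusted p of MATN1, COL11A1, COL11A2, COL9A1 and COL9A2 was between 0.0012 and 0.00595, and it was between 0.035 and 0.05 when edgeR tested only genes that reached 10 counts in each library.

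The 4 matrix genes that fell were of lower level. chad (ENSDARG00000045071), chondroadherin, a leucine-rich protein that binds chondrocytes to collagen, had 41.2, 70.1 and 56.5 CPM in mutants and 191, 152, 123 and 128 CPM in wild-type/heterozygous larvae, 2.92-fold lower (log2 fold change -1.55 ± 0.25 SE, adjusted p = 0.00869), and was called in all 7 fits that left out 1 library. UCMA (ENSDARG00000005485), a small matrix protein of upper-zone cartilage, had 159, 177 and 277 CPM against 494, 374, 442 and 672 CPM, 2.66-fold lower (log2 fold change -1.41 ± 0.29 SE, adjusted p = 0.0284). snorc (ENSDARG00000092383), a transmembrane proteoglycan of chondrocytes, had 312, 402 and 454 CPM against 858, 667, 665 and 1169 CPM, 2.38-fold lower (log2 fold change -1.25 ± 0.27 SE, adjusted p = 0.0334).

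CYTL1 (ENSDARG00000110744), a secreted cytokine-like protein made by chondrocytes, had 32.1, 40.9 and 48.9 CPM in mutants and 112, 67.6, 78.7 and 149.8 CPM in wild-type/heterozygous larvae, 2.78-fold lower (log2 fold change -1.47 ± 0.33 SE, adjusted p = 0.0379). These calls rested on single libraries except that of chad. Without mutant replicate 1 the adjusted p was 0.14 for UCMA, 0.159 for snorc and 0.172 for CYTL1, and without mutant replicate 3 it was 0.128 for UCMA, 0.124 for snorc and 0.139 for CYTL1. Without wild-type/heterozygous replicate 1 it was 0.0533 for UCMA, 0.0624 for snorc and 0.0749 for CYTL1, and without mutant replicate 4 it was 0.074 for snorc and 0.0842 for CYTL1.

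The remaining matrix genes of the list had values between -1.01 and -0.01 on the log2 scale. Aggrecan, the large proteoglycan that holds water in cartilage, is encoded by acana (ENSDARG00000035891), with 523, 720.3 and 756 CPM in mutants against 1211, 1055, 948 and 1001 CPM (adjusted p = 0.0556), and by acanb (ENSDARG00000045799), with 218, 284 and 433 CPM against 662, 454, 548 and 414 CPM (adjusted p = 0.128). The lowest wild-type/heterozygous library of acanb was below the highest mutant library. MATN4 (ENSDARG00000015947), another matrilin, had 5070.3, 5278 and 4925 CPM in mutants and 4741, 4855, 5083 and 4080.2 CPM in wild-type/heterozygous larvae, a log2 fold change of -0.01 ± 0.13 (SE, adjusted p = 0.982). Its levels overlapped, whereas those of MATN1 did not.

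On the whole cartilage matrix list, 6 of 30 genes tested fell and none rose, against 21 lower with DESeq2. The 2 outside the 200 were col11a1b and HAPLN3, a link protein that ties hyaluronan to aggrecan. Of 27 chondrogenic regulators, 1 fell (an ALX4, ENSDARG00000088332, a homeobox factor of the craniofacial skeleton) and none rose, with a median log2 fold change of -0.36. In wild-type/heterozygous larvae the ALX4 that fell had a mean of 160 CPM in sox10+ cells and 275 CPM in mylz2+ cells. The other ALX4 (ENSDARG00000074442) had a negative value and did not pass (edgeR adjusted p = 0.0941). The 2 regulators among the 200 did not pass: RUNX3 (ENSDARG00000052826), a transcription factor of chondrocyte maturation, had 115, 110.1 and 107 CPM in mutants and 148, 144, 146 and 90.1 CPM in wild-type/heterozygous larvae (adjusted p = 0.35), and GDF5 (ENSDARG00000002760), a growth factor of joints, had 46.1, 30.5 and 52.9 CPM against 75.1, 91.3, 60.6 and 41.0 CPM (adjusted p = 0.217). In both, wild-type/heterozygous replicate 4 lay among or below the mutant libraries.

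The 3 genes of matrix processing did not pass either. Every mutant library was below every wild-type/heterozygous library for each, as for 5.94% of all genes tested. LOXL3 (ENSDARG00000039563), which cross-links collagen, had 298, 337 and 440.4 CPM in mutants and 757, 561, 520.0 and 521 CPM in wild-type/heterozygous larvae (log2 fold change -0.85 ± 0.22 SE, adjusted p = 0.0701). CSGALNACT1 (ENSDARG00000040535), which starts chondroitin sulfate chains, and PAPSS2 (ENSDARG00000056600), which makes the donor for their sulfation, gave -0.68 ± 0.23 (SE, adjusted p = 0.144) and -0.63 ± 0.19 (SE, adjusted p = 0.111). DESeq2 called all 3 lower. Over the whole list of 37 genes of matrix processing and secretion, 1 rose and none fell, with a median of -0.31, while DESeq2 called 8 lower and 1 higher. The gene that rose was an SLC35D1 (ENSDARG00000027986), a transporter of nucleotide sugars for chondroitin sulfate, with a mean of 8.99 CPM in wild-type/heterozygous larvae. The other SLC35D1 (ENSDARG00000011973), at 279 CPM, had a negative value and did not pass (log2 fold change -0.44 ± 0.19 SE, adjusted p = 0.281).

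COL8A2 (ENSDARG00000060893), a short-chain collagen with the third highest ratio of the 200 and on no list, had 1001, 1206 and 1218 CPM in mutants and 2316, 2391, 2091 and 1611 CPM in wild-type/heterozygous larvae. It was 2.01-fold lower (log2 fold change -1.01 ± 0.18 SE, adjusted p = 0.0134), but not called without mutant replicate 1 (adjusted p = 0.0907) or 3 (adjusted p = 0.0757). Of the other genes with the highest ratios, itih3a.2 (ENSDARG00000055053), whose family binds hyaluronan, had 665, 623 and 777 CPM in mutants and 1028, 784, 737 and 762 CPM in wild-type/heterozygous larvae (adjusted p = 0.335). Neither emilin3a (ENSDARG00000078052), an extracellular matrix glycoprotein, at 552, 814 and 669.6 CPM in mutants against 756, 808, 623 and 719.6 CPM, nor fgfbp2b (ENSDARG00000038056), a carrier of fibroblast growth factors, at 1018, 1108 and 1377 CPM against 1533, 1309, 1568 and 2315 CPM, passed (adjusted p = 0.626 for emilin3a and 0.189 for fgfbp2b). MIA (ENSDARG00000052437), a secreted protein of cartilage, had 661, 969 and 1216 CPM against 1640.0, 1316, 1439 and 2241 CPM without overlap (adjusted p = 0.103).

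Other matrix genes on no list, picked after their values were seen, gave a mixed picture. PRELP (ENSDARG00000070597), a leucine-rich proteoglycan, was 2.76-fold lower (adjusted p = 0.00769, and 0.0559 without mutant replicate 1), and chadlb, related to chondroadherin, was 1.96-fold lower (adjusted p = 0.0273, called in 3 of the 7 fits that left out 1 library, with adjusted p-values up to 0.143). A type II collagen gene among the 200, carrying the symbol COL2A1 (ENSDARG00000011407), had 5589, 7151 and 8926 CPM in mutants and 14777, 10813, 9672 and 11126 CPM in wild-type/heterozygous larvae (log2 fold change -0.82 ± 0.23 SE, adjusted p = 0.0927). The matrix metalloproteinases MMP2 and MMP14, which degrade matrix, did not pass (log2 fold change -0.31 ± 0.17 SE, adjusted p = 0.418 for MMP2, and -0.04 ± 0.19 SE, adjusted p = 0.956 for MMP14).

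**Figure D4:**
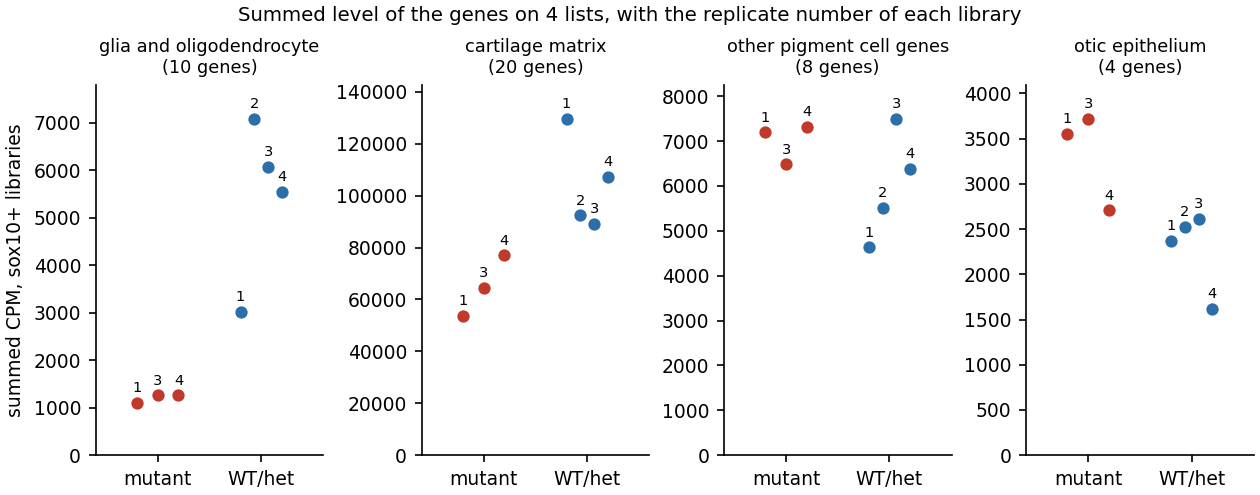
Summed CPM of the genes on 4 lists in each psmb1 mutant and wild-type/heterozygous (WT/het) sox10+ library, on linear axes that start at 0, with the replicate number beside each point. Mutant libraries lie below all others for the glial and cartilage matrix sums, overlap with them for the pigment cell sum and lie above them for the otic sum.

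Pigment cell genes among the 200 did not move together. Of the 8, 1 fell and none rose, against 1.61% and 2.1% of all genes tested. The median log2 fold change was 0.18, with summed levels of 7201, 6482 and 7323 CPM in mutants and 4639, 5512, 7499 and 6385 CPM in wild-type/heterozygous larvae. gch2 (ENSDARG00000099101), GTP cyclohydrolase of pteridine pigment synthesis in the yellow xanthophores, had 5522, 5147 and 5642 CPM in mutants and 3389, 3981, 5640.3 and 4458 CPM in wild-type/heterozygous larvae (log2 fold change 0.19 ± 0.18 SE, adjusted p = 0.719). Other genes of the same pigment cells among the 200 had positive values without passing. These were aox5, an aldehyde oxidase (0.17 ± 0.20 SE, adjusted p = 0.785), XDH, xanthine dehydrogenase (0.33 ± 0.16 SE, adjusted p = 0.364), and PAX7, a transcription factor of the xanthophore lineage (0.43 ± 0.15 SE, adjusted p = 0.182). For this PAX7 (ENSDARG00000070818) and XDH every mutant library was above every wild-type/heterozygous library. A second PAX7 on the list (ENSDARG00000100398), outside the 200, had a negative value (-0.22 ± 0.20 SE, adjusted p = 0.707).

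pnp4a (ENSDARG00000057575), a purine nucleoside phosphorylase of the reflective iridophores, was the one that fell, with 165, 120.3 and 236 CPM in mutants and 372, 461, 509 and 853 CPM in wild-type/heterozygous larvae. It was 3.46-fold lower (log2 fold change -1.79 ± 0.35 SE, adjusted p = 0.0222), and not past the threshold without mutant replicate 1 (adjusted p = 0.115) or 3 (adjusted p = 0.0974). Of 30 genes tested on the whole pigment list, 3 fell and none rose (5 lower and 1 higher with DESeq2), and the median was -0.33, opposite in sign to that of the 8 genes. The other 2 were ltk, a receptor kinase needed for iridophores, and TFEC, a transcription factor of the same lineage, neither of them among the 200.

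Some genes on no list, picked after their values were seen, were low in the same mutant libraries as pnp4a. GPNMB (ENSDARG00000062688), a glycoprotein of pigment cells, had 370.1, 207 and 439 CPM in mutants and 841, 1225, 1295 and 1199.7 CPM in wild-type/heterozygous larvae, 3.66-fold lower (log2 fold change -1.87 ± 0.27 SE, adjusted p = 0.0058), and was called in all 7 fits that left out 1 library. In GPNMB, lypc, apoda.1, akap12a and pnp4a mutant replicate 3 was the lowest of all 7 libraries. lypc was 4.47-fold lower (adjusted p = 0.0288, called in 3 of the 7 fits that left out 1 library, with adjusted p-values up to 0.138), akap12a, a kinase-anchoring protein, 4.19-fold lower (adjusted p = 0.0204, in 5 of the 7, up to 0.113) and apoda.1, an apolipoprotein D, 3.97-fold lower (adjusted p = 0.0381, in 2 of the 7, up to 0.16). pmela (ENSDARG00000091298), the fibril protein of melanosomes in the black melanophores, had 187, 75.6 and 140.0 CPM in mutants and 90.1, 323, 308 and 412 CPM in wild-type/heterozygous larvae and did not pass (adjusted p = 0.215).

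The 4 otic epithelium genes had a median log2 fold change of 0.34, the highest of the lists with members among the 200, although none of the 4 passed. Their summed level was 3556, 3720 and 2711 CPM in mutants and 2371, 2528, 2616 and 1617 CPM in wild-type/heterozygous larvae. stm (ENSDARG00000035694), starmaker, which shapes the ear stones, had 2440.3, 2614 and 1717 CPM in mutants and 1465, 1531, 1703 and 903 CPM in wild-type/heterozygous larvae (log2 fold change 0.56 ± 0.21 SE, adjusted p = 0.206). The lowest mutant library was just above the highest wild-type/heterozygous one. atp1a1a.4, a sodium pump subunit, gave 0.13 ± 0.16 (SE, adjusted p = 0.796), ZPLD1, a zona pellucida-like protein of the ear, 0.68 ± 0.29 (SE, adjusted p = 0.267), and cldna, a claudin, -0.01 ± 0.20 (SE, adjusted p = 0.99), a value that was 0.13 with library totals as scaling. On the whole list of 22 otic genes tested, 3 rose and 1 fell. Those that rose were OTOG, OTOGL and TECTB, which encode proteins of the membranes over sensory hair cells, and the one that fell was sparcl1.

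The 3 genes that rose were on no list. si:ch211-133n4.6 (ENSDARG00000092099) had 1032, 1144 and 571 CPM in mutants and 287, 451, 367 and 186 CPM in wild-type/heterozygous larvae, a 2.59-fold rise (log2 fold change 1.38 ± 0.28 SE, adjusted p = 0.0274). Its call was lost without mutant replicate 1 (adjusted p = 0.125) or 3 (0.123) and without wild-type/heterozygous replicate 1 (0.0626) or 3 (0.058). tmprss5 (ENSDARG00000087717), a membrane-bound serine protease, had 234, 137 and 189 CPM in mutants and 67.5, 83.7, 70.9 and 60.9 CPM in wild-type/heterozygous larvae, a 2.41-fold rise (log2 fold change 1.27 ± 0.19 SE, adjusted p = 0.00718), and was called in all 7 fits that left out 1 library.

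vcanb (ENSDARG00000009401), a versican, the large hyaluronan-binding proteoglycan of loose embryonic matrix, had 661, 398 and 588 CPM in mutants and 191, 220.3, 269.7 and 244 CPM in wild-type/heterozygous larvae. It rose 2.17-fold (log2 fold change 1.12 ± 0.20 SE, adjusted p = 0.0153), a call that was lost without mutant replicate 1 (adjusted p = 0.0848), mutant replicate 4 (0.0751) or wild-type/heterozygous replicate 2 (0.0504). Its direction was opposite to that of acana and acanb, the aggrecans of the same proteoglycan family, whose values were negative. In each of the 3 rising genes the genotypes did not overlap.

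Several of the largest falls were of genes with little annotation. TLCD5 (ENSDARG00000024920), of the TLC domain family, had 15.1, 15.5 and 13.9 CPM in mutants and 73.6, 139, 120.5 and 95.5 CPM in wild-type/heterozygous larvae and was 7.84-fold lower, with the smallest adjusted p of the 200 (log2 fold change -2.97 ± 0.22 SE, adjusted p = 0.000343). si:ch211-209m20.6 (ENSDARG00000097767) had 7.79, 9.63 and 7.23 CPM against 33.7, 86.3, 60.1 and 68.2 CPM and was 8.25-fold lower (adjusted p = 0.00102). TMEM125, a transmembrane protein, was 7.5-fold lower (adjusted p = 0.00389), si:ch211-1a19.3 6.33-fold lower (adjusted p = 0.00537) and dhrs12la, a dehydrogenase-like gene, 6.02-fold lower (adjusted p = 0.00158). All of these were called in each of the 7 fits that left out 1 library. In TLCD5 and si:ch211-209m20.6, as in the glial genes, wild-type/heterozygous replicate 1 was the lowest library of its genotype.

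c7b, timd4 and f13a1b, which also fell, are on no list. c7b (ENSDARG00000057121), a terminal complement component, had 26.8, 17.0 and 41.1 CPM in mutants and 95.7, 232, 114 and 168 CPM in wild-type/heterozygous larvae (5.81-fold lower, adjusted p = 0.00729, and 0.0539 without mutant replicate 1). timd4 (ENSDARG00000077257), whose mammalian counterpart is a receptor for phosphatidylserine, had 15.6, 29.4 and 26.1 CPM against 67.3, 199.8, 103 and 136 CPM (5.79-fold lower, adjusted p = 0.00605). f13a1b (ENSDARG00000036893), a coagulation factor XIII subunit that cross-links proteins, had 649.9, 682 and 934 CPM against 1802, 3075, 2329 and 2574 CPM (3.52-fold lower, adjusted p = 0.00252). The blood and immune markers found were low in both genotypes, summing to 19.7 to 34.9 CPM in mutants and 12.5 to 41.1 CPM in wild-type/heterozygous larvae. None of the 8 tested passed. On this list 6 entries matched no identifier, so it covers such cells only in part.

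Muscle transcripts in the sox10+ libraries summed to 83.3 to 1021 CPM in mutants and 480 to 3074 CPM in wild-type/heterozygous larvae, against 161108 to 232891 CPM in mutant and 243784 to 267368 CPM in wild-type/heterozygous mylz2+ libraries. None of the 25 muscle genes passed in sox10+ cells, though 22 had a negative value and the median log2 fold change was -1.66. DESeq2 called 3 of them lower. Epithelial genes gave 2 rises and 2 falls among 19 tested. The part of these other cell types in the changes of the 200 genes was not tested.

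Mutant libraries were not used to choose the genes, so a comparison of mutant sox10+ with mutant mylz2+ cells measures the same specificity in other samples. Of the 200 genes, 199 were higher in mutant sox10+ cells at an adjusted p under 0.05 from edgeR's quasi-likelihood test, against 19.2% of the 21221 genes tested. For all 200, every mutant sox10+ library was above every mutant mylz2+ library on CPM, as in 50.6% of all genes tested. The median log2 fold change was 6.08. The remaining gene, si:dkey-73n8.3, had a log2 fold change of 4.81 and an adjusted p of 0.0506. The other 1051 genes past both thresholds were much alike in direction. Of the 1050 tested, 969 were higher in mutant sox10+ cells by the same test (92.3%), with a median log2 fold change of 2.63. For 1041 of the 1051 (99.0%), CPM did not overlap in that direction. mbpa had 7940 to 14391 counts in mutant sox10+ libraries and no count in any mutant mylz2+ library, at least 5275-fold higher on CPM against a floor of 3 counts per library. By the same measure timd4, also with no count in mutant mylz2+ cells, was at least 709-fold higher.

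The log2 ratio used to choose the genes had a median of 5.68 in mutants, with a range of 2.65 to 9.41, against 6.40 in the wild-type/heterozygous libraries that chose them. It was lower in mutants for 182 of the 200 genes. Since the highest ratios in wild-type/heterozygous larvae chose the genes, a lower ratio in libraries that did not choose them can follow from the choice alone. This count therefore does not measure an effect of genotype. In mutants 198 of the 200 genes still had a ratio of at least 3, and 191 passed both thresholds. Had the rule been applied to the mutant libraries, 148 of the 200 (74.0%) would have been among its top 200. FHL3 (ENSDARG00000034643), a LIM-domain protein, had the lowest ratio in mutants at 2.65, against 5.94 in wild-type/heterozygous larvae, and TLCD5 was the other gene below 3, at 2.93 against 5.65.

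**Figure D5:**
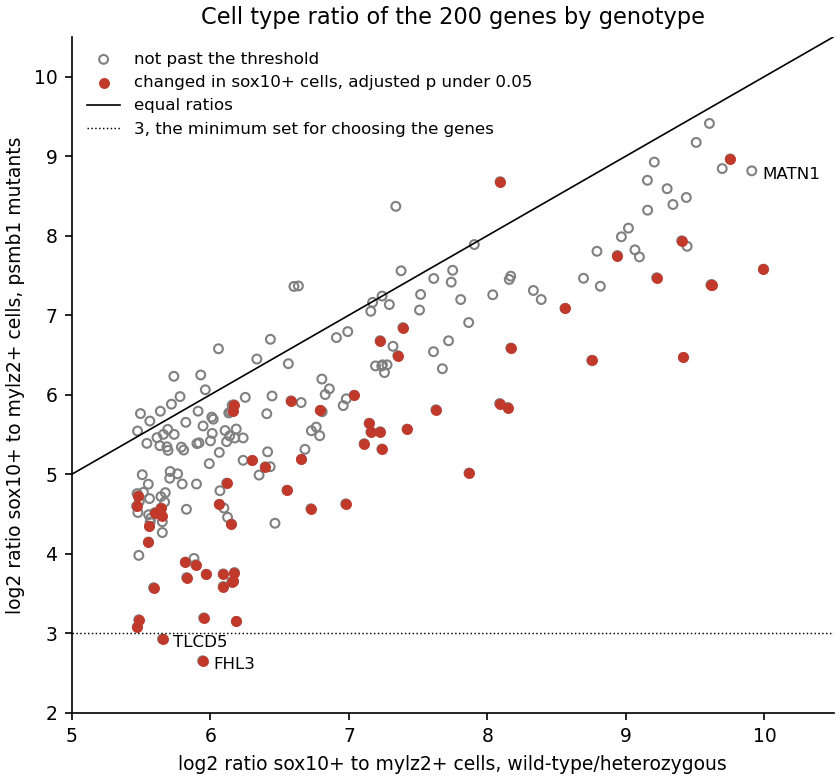
Log2 ratio of mean level in sox10+ over mylz2+ cells, each with 1 CPM added, in psmb1 mutants (vertical) against wild-type/heterozygous larvae (horizontal, the values that chose the genes) for the 200 genes, with filled points for genes changed in sox10+ cells. Most points lie below the line of equal ratios, which choosing the genes by the horizontal values favors. FHL3 at 2.65 and TLCD5 at 2.93 lie below the dotted line at 3.

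In mylz2+ cells, where the rule sets a low level, the median of the mean levels of the 200 genes was 1.07 CPM in mutants and 0.755 CPM in wild-type/heterozygous larvae. They took 0.107% ± 0.013 of the counts in mutants (SD, n = 3) and 0.0775% ± 0.026 in wild-type/heterozygous larvae (SD, n = 4). Of the 178 genes with enough counts to be tested there, 2 fell and 2 rose, against 11.6% of all 20413 genes that fell and 10.7% that rose, and 22 were not tested. On CPM, every mutant library was above every wild-type/heterozygous library for 13 of the 200 genes (6.5%), against 29.9% of all genes tested. The median log2 fold change was 0.13, against -0.81 in sox10+ cells. The wild-type/heterozygous mylz2+ libraries also chose the genes, by low levels there. Such a choice can by itself make mutant levels in mylz2+ cells look higher, for the share, the median and any single gene of the 200. How much it adds was not tested. Whether the change of each gene differs between the cell types was not tested.

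FHL3 rose in mylz2+ cells, with 988, 1088 and 1054 counts in mutants and 170, 157, 163 and 108 counts in wild-type/heterozygous larvae (log2 fold change 2.13, adjusted p = 0.000483), while it was 2.55-fold lower in mutant sox10+ cells, at 65.8, 59.3 and 109.9 CPM against 128, 210.1, 211 and 189 CPM (adjusted p = 0.0251). The fall in sox10+ cells was called in 3 of the 7 fits that left out 1 library, and its adjusted p was 0.13 without mutant replicate 1, 0.112 without mutant replicate 3, 0.067 without wild-type/heterozygous replicate 2 and 0.0567 without wild-type/heterozygous replicate 3. XDH, with 62, 79 and 109 counts in mutant mylz2+ libraries and none in the 4 wild-type/heterozygous ones, was at least 23.1-fold higher against a floor of 3 counts per library (adjusted p = 0.0043). The 2 that fell were LOXL3, with 197, 413 and 255 counts against 603, 416, 415 and 454 counts (adjusted p = 0.00468), and si:ch211-106h11.3, with 106, 126 and 58 counts against 247, 104, 162 and 263 counts (adjusted p = 0.0215). The call of si:ch211-106h11.3 was lost without mutant replicate 3 (adjusted p = 0.063) or 4 (0.0669) and without wild-type/heterozygous replicate 1 (0.0548) or 4 (0.0662). Its counts overlapped between the genotypes, but its CPM did not.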

How the data were processed

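RNA-Seq counts per gene for 14 libraries were used as deposited by the authors, whose sources name alignment to GRCz11 with STAR after SMART-Seq HT and Nextera XT preparation. The counting tool and strandedness are not given in the sources used here, so overlapping genes and near-identical paralogues may share reads. Libraries were grouped by the genotype and cell type of their labels, and 0 sample columns were left unused. The mylz2+ mutant library called replicate 3 after its title is numbered 2 in its description and column. Levels are CPM on library totals. Each of 3 comparisons was fitted on its own libraries with edgeR 4.0.16 in R 4.3.3 (TMM scaling, filterByExpr, quasi-likelihood test, Benjamini-Hochberg adjustment over all genes tested, threshold 0.05). Fold changes come from these fits, and p-values weigh each difference between groups against the spread between these libraries. The SE of a log2 fold change was derived as its absolute value divided by the square root of the F statistic of the test. The script was tested on simulated data. DESeq2 1.42.0, other scalings and filters, a replicate block, other ways of choosing the genes and leaving out each library were tried as alternatives.

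The genes and lists were chosen with earlier results of these data known. Genes named are the 10 with the highest ratio, the 10 largest falls and rises past the threshold without overlap, listed genes (at most 4 a list with full values), the 5 most abundant and those at the boundary. Other members with values were picked after their values were seen. Some members are not reported here by name, though counts and sums over the 200 genes and the lists include them. Symbols were found for 29201 of 32520 identifiers, and 203 of 295 list entries matched by name, 73 by a shared human symbol and 19 not at all.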

Additional observations from a re-analysis of the deposited data

Results flagged for a closer look

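Among 202 groups of 4 libraries examined, 8 had 1 library far from the other 3, judged by its gap to the nearest library as a share of the whole range. Dixon's 95% critical value was the limit, which about 1 group in 20 passes by chance. The 8 flags do not exceed that rate. Only the wild-type/heterozygous groups have 4 libraries, so mutant groups were not examined. All 8 concern wild-type/heterozygous sox10+ libraries. The gap was 0.836 of the range for itih3a.2, 0.833 for COL11A2, 0.904 for mbpb, 0.835 for VIT, 0.940 for LRP1, 0.920 for RUNX3, 0.931 for ARHGEF28 and 0.880 for slc12a2.

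For 6 genes every mutant library lay below every wild-type/heterozygous library in sox10+ cells and above them all in mylz2+ cells. Over all genes tested, 5.94% lay below in this way in sox10+ cells and 29.9% above in mylz2+ cells. Among the 200 genes, 103 lay below in sox10+ cells and 13 above in mylz2+ cells. Choosing the genes by high sox10+ and low mylz2+ levels in wild-type/heterozygous libraries favors both directions. A share for both together over all genes was not computed either, so the 6 are a description only. Of the 6, FHL3 alone passed the threshold in mylz2+ cells, and PAPSS2 did not pass in sox10+ cells either. The difference between the cell types was not tested. The log2 fold change was -0.92 in sox10+ and 0.42 in mylz2+ cells for si:dkey-19b23.8, -1.82 and 2.68 for sytl2b, -0.76 and 1.05 for sh3kbp1, -1.36 and 2.53 for GAL3ST1, -1.35 and 2.13 for FHL3, and -0.63 and 0.36 for PAPSS2.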

How the results depend on the processing

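In sox10+ cells 62 of the 200 genes were called (59 lower, 3 higher). DESeq2 called 121 (116 lower, 5 higher), a minimum of 10 counts in every library 109 (105 lower), and the 100 genes with the highest ratio held 32 calls (31 lower, 1 higher), a smaller set by construction. Over all genes tested, DESeq2 called 6.18% lower and the minimum of 10 counts 4.13%, against 1.61% in the main fit. Leaving out 1 library gave 26 to 61 calls (25 to 58 lower, 1 to 3 higher), and choosing the genes without 1 wild-type/heterozygous sox10+ library gave up to 64. In mylz2+ cells 4 genes were called, against 12 with DESeq2 (5 lower, 7 higher), 7 with library totals (1 lower, 6 higher), 0 among the 100 genes with the highest ratio (0 lower, 0 higher) and 3 to 9 without 1 library (1 to 5 lower, 2 to 7 higher). With no filter 4 rose, and with genes chosen on TMM-scaled CPM 1 fell. Over all 20413 genes tested in mylz2+ cells, the main fit called 2364 lower and 2189 higher. Library totals called 1123 lower and 4343 higher of the same genes. DESeq2 called 3157 lower and 2843 higher of 21314 genes. Fits without 1 library called 1711 to 2177 lower and 1434 to 2156 higher. Between the cell types in mutants, all 118 genes tested were called with at least 10 counts in every library. All of the 100 with the highest ratio were called, and 193 to 199 of the 200 without 1 library. Apart from the smaller numbers of genes tested, the cause of these differences was not tested.

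The replicate numbers gave correlations of deviations between -0.04 and 0.06. With so few libraries in a group, such values cannot tell whether mutant and wild-type/heterozygous libraries of one number came from one clutch. The paper states that its experiments compared siblings matched by clutch. The main fits treated the libraries as unpaired. A replicate block called 28 genes in sox10+ cells (27 lower, 1 higher), and in mylz2+ cells 5, or 8 (6 higher) with the numbers of the sample descriptions. Over all genes tested in sox10+ cells, the block called 0.298% lower. Over all 20413 genes tested in mylz2+ cells, the block called 1950 lower and 1792 higher. With the numbers of the descriptions, these were 1762 and 1524.

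Without the 100 most abundant genes of the cell type the share of counts was 3.53% in mutant and 5.29% in wild-type/heterozygous sox10+ cells, and 0.192% and 0.166% in mylz2+ cells. Without the 5 most abundant of the 200 it was 7.40% and 10.2% in sox10+ cells and 0.0861% in mutant mylz2+ cells. Leaving out 1 library of a group, an alternative chosen after seeing the data, gave 11.2% to 12.8% in mutant and 17.3% to 18.6% in wild-type/heterozygous sox10+ cells. The log2 fold change of cldna reversed to 0.13 with library totals and ran between -0.13 and 0.083 without 1 library, positive without mutant replicate 3 or 4 or wild-type/heterozygous replicate 3 or 4. Of 507 pairs of a named gene and an alternative, 470 kept their direction and side of the threshold. This includes pairs of genes that were not called in the main fit. Of the 39 named genes 18 were called there, and 12 of these 18 kept both in all 13 alternatives. A planned look at promoter motifs was not run.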

Other observations

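In mylz2+ cells the 8 pigment cell genes summed to 9.35, 75.6 and 10.4 CPM in mutant replicates 1, 3 and 4 and to 29.2, 4.34, 5.18 and 10.3 CPM in wild-type/heterozygous larvae. The high value of mutant replicate 3 was mostly gch2, with 6544 counts there against 476 and 412 counts in the other mutant libraries. tmprss5, which rose in sox10+ cells, had 0, 286 and 368 counts in mutant mylz2+ libraries and 1, 0, 0 and 0 counts in wild-type/heterozygous ones. PAPSS2 had 923, 1421 and 1456 counts in mutant mylz2+ libraries and 561, 538, 664 and 740 counts in wild-type/heterozygous ones.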
